A study of Mus musculus with 9 samples.

Results

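The insulin-like growth factor (IGF) family genes were examined in primary mouse lung endothelial cells (MLEC) from mice with and without Cre-directed deletion of the floxed Jnk1 and Jnk2 genes, which encode JNK protein kinases. The 10 genes, chosen by name, were the ligands Igf1 and Igf2, the receptors Igf1r and Igf2r, and the binding proteins Igfbp2, Igfbp3, Igfbp4, Igfbp5, Igfbp6 and Igfbp7, of 37104 loci in the deposited tables. RNA was sequenced from 9 libraries in 3 groups of 3, all from adult C57BL/6J mice of 10 to 12 weeks. All groups carried the germ-line Jnk3-/- (Mapk10) deletion, so none was wild type. ECtrl cells were Cdh5-Cre+ Jnk1+/+ Jnk2+/+ Jnk3-/-. EfCtrl cells were Cdh5-Cre- with Jnk1LoxP/LoxP, Jnk2LoxP/LoxP and Jnk3-/-. E3KO cells carried Cdh5-Cre+ together with Jnk1LoxP/LoxP, Jnk2LoxP/LoxP and the shared Jnk3-/-. Here Cre, driven by the VE-cadherin promoter of endothelial cells, can delete Jnk1 (Mapk8) and Jnk2 (Mapk9). The lungs of 4 mice were pooled for each library, with magnetic bead selection on the endothelial surface protein ICAM2 and culture before RNA was taken.

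IGF1 and IGF2 are secreted growth factors that signal through the tyrosine kinase IGF1R. IGF2R, also known as the cation-independent mannose 6-phosphate receptor, takes up IGF2 for breakdown and carries lysosomal enzymes. The IGF binding proteins hold the ligands in the extracellular space, where they may block or prolong signaling, and endothelial cells are a well-known source of several of them. Igf2 and Igf2r are imprinted genes in the mouse. The study asked how loss of JNK altered gene expression in endothelial cells. Transcript levels were given in FPKM, the count of sequenced fragments scaled to transcript length and library total, a unit that corrects for length and so allows levels to be compared between genes. The tables do not hold the read depth of each library.

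Shown first are the promoters of Igf2r, Igfbp3 and Igfbp5, whose E3KO libraries all lay above the controls, and of Igf1, whose E3KO libraries overlapped them. They are the 250 bases before the annotated start site in RefSeq (GRCm38.p6), and all 10 genes had at least 1 entry among 14. The JNK substrate cJun is a component of the AP-1 transcription factor, so the AP-1 motif TGANTCA was searched on both strands with the cyclic AMP response element (CRE) TGACGTCA, the FOXO motif TGTTTAC, the GC box GGGCGG and the TATA motif TATAAA. Igf2r lies at chr17:12769707-12769956 on the minus strand, Igfbp3 at chr11:7213924-7214173 on the minus strand, Igfbp5 at chr1:72874866-72875115 on the minus strand, and Igf1 at chr10:87860861-87861110 on the plus strand. Each is written 5′ to 3′ along its gene's strand, and capitals mark motif matches.
Igf2r: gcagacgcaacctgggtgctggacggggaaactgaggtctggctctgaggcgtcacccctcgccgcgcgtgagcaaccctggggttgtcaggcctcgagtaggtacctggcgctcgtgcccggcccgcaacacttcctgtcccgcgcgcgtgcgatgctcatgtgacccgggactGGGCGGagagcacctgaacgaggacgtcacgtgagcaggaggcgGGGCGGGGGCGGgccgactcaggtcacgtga
Igfbp3: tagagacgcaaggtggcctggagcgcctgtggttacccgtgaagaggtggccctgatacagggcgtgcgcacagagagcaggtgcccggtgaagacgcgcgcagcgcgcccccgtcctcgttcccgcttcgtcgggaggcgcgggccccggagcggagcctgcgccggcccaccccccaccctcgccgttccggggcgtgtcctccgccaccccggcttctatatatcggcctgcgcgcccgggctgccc
Igfbp5: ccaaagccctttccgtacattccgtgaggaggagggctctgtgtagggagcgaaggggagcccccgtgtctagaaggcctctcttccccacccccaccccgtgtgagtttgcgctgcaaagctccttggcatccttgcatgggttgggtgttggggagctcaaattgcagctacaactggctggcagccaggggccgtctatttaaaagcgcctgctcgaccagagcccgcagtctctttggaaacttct
Igf1: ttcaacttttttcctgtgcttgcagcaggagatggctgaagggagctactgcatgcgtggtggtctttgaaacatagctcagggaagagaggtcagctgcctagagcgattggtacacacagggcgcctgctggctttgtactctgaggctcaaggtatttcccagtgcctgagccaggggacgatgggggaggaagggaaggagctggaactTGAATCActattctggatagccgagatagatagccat
The Igf2r window held 3 GC boxes, of which 2 adjoined. The Igf1 window held 1 AP-1 match, TGAATCA, 37 to 31 bases before the start. The Igfbp3 and Igfbp5 windows held none of the 5 motifs as spelled. Over the 14 entries, 2 held AP-1, 6 held a GC box, 2 held TATA, and 0 held the CRE or FOXO letters. The other AP-1 entry was of Igfbp2, which was listed at 0 FPKM in all 9 libraries. For comparison, AP-1 was found in 6.75% of 32851 mouse promoters of that length, CRE in 1.55%, FOXO in 3.17%, the GC box in 32.7% and TATA in 12.4%. A match describes letters in this window and is not a binding site.

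On mm10 the loci of the files stood at chr10:87826377-87937042 for Igf1, chr7:142650766-142670356 for Igf2, chr7:67952859-68226780 for Igf1r and chr17:12682406-12868143 for Igf2r. The binding protein loci were chr11:7206086-7213923 for Igfbp3, chr11:99041244-99054392 for Igfbp4, chr15:102144362-102149511 for Igfbp6 and chr5:77310147-77408045 for Igfbp7. Igfbp2 at chr1:72824503-72852474 and Igfbp5 at chr1:72857932-72874884 are neighbors that stand 5457 bases apart on opposite strands. Igfbp3 lies 3539 bases from Igfbp1. The Igf2r locus spans 8 other annotated genes, among them the antisense RNA Airn and the receptor gene Mas1, and the Igf2 locus spans 3, including the antisense Igf2os. Use of strand in the counting is not given in the sources used here, so reads of Igf2, Igf2r, Igf1 and Igfbp7 cannot be told apart from those of genes on the other strand at the same place. On the same strand as the named gene lie 5 of the genes at the Igf2r locus, Mas1 among them, and 2 at the Igf2 locus. Whether reads of these entered the values was not tested.

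The targeted genes were checked in each library. Mapk9 was 44.1, 50.9 and 47.9 FPKM in the 3 ECtrl libraries, 45.5, 42.7 and 47.9 FPKM in EfCtrl and 27.6, 35.1 and 20.7 FPKM in E3KO, and fell by 0.75 on the log2 scale (limma, adjusted p = 0.0359). This call was kept without E3KO replicate 2 and lost when any of the other 8 libraries was left out (adjusted p = 0.0565 to 0.0983). Mapk8 was 17.0, 15.0 and 17.9 FPKM in ECtrl and 16.7, 14.0 and 15.1 FPKM in EfCtrl. In E3KO it was 20.7, 8.77 and 4.65 FPKM, so the library labelled E3KO replicate 1 held more Mapk8 than any control. Its Mapk8 level thus went against its label, while its Mapk9, at 27.6 FPKM, was below every control. The FPKM of a whole gene does not by itself measure deletion of the floxed part. The log2 difference of Mapk8 was -0.67 (adjusted p = 0.285), and -1.18 without that library (adjusted p = 0.0298). Mapk10 was at most 0.270 FPKM in all 9 libraries. The library labelled E3KO replicate 1 also had 96.4% of its summed FPKM in 10 genes, against 40.9 to 56.8% in the other libraries. Once genes averaging at least 5000 FPKM were set aside, the summed FPKM per library ranged from 388537 to 433172. Pan-endothelial markers, led by Emcn and Cdh5, summed to 3093 to 4251 FPKM in the 9 libraries, and 1 of these 10 markers passed the test (4.8% of all genes tested). This was Emcn, which was higher in E3KO, by a log2 difference of 0.63 (limma, adjusted p = 0.0260). Lymphatic endothelial markers, led by Lyve1 and Mmrn1, summed to 2275 to 3341 FPKM, and 3 of 7, Prox1, Ccl21a and Reln, were lower in E3KO (3.26% of all genes tested). Of the 7 lymphatic markers 0 had a log2 difference above 0, and their median was -0.58, beside -0.08 for all genes tested. Ccl21a reached the minimum for testing (an average of 2 FPKM in some group) only through the controls. Its means were 5.67, 4.31 and 0.773 FPKM in ECtrl, EfCtrl and E3KO. The list was also chosen with earlier results of these data known, so this count and median do not test the lymphatic genes as a set. By these sums the cultures held lymphatic as well as pan-endothelial transcripts. The part of the lymphatic cells in the IGF family values was not tested.

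Of the 10 IGF family genes, Igfbp7 and Igfbp4 had the highest levels and Igfbp2 was listed at 0 FPKM in all 9 libraries. By mean FPKM the order was Igfbp7, Igfbp4, Igf2, Igfbp3, Igf1r, Igf2r, Igf1, Igfbp5, Igfbp6 and Igfbp2. Igfbp7 was above Igfbp4 in 9 of 9 libraries, and its mean exceeded that of 98.8% of the 10605 genes tested. Igfbp4 was in turn above Igf2 in 9 of 9 libraries. Igf2 and Igfbp3 were not separated, because Igf2 was the higher in 4 of 9 libraries. Igf1r was above Igf2r in 6 of 9 libraries, and Igf2r above Igf1 in 8 of 9. The ranges of these neighbors overlapped, whereas the lowest Igf1 value, 3.71 FPKM, was above the highest Igfbp5 value of 3.11 FPKM. These cells therefore contained more binding protein transcript than ligand transcript. The binding proteins summed to 593 to 800.0 FPKM and both ligands to 43.5 to 157 FPKM per library.

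**Figure D1:**
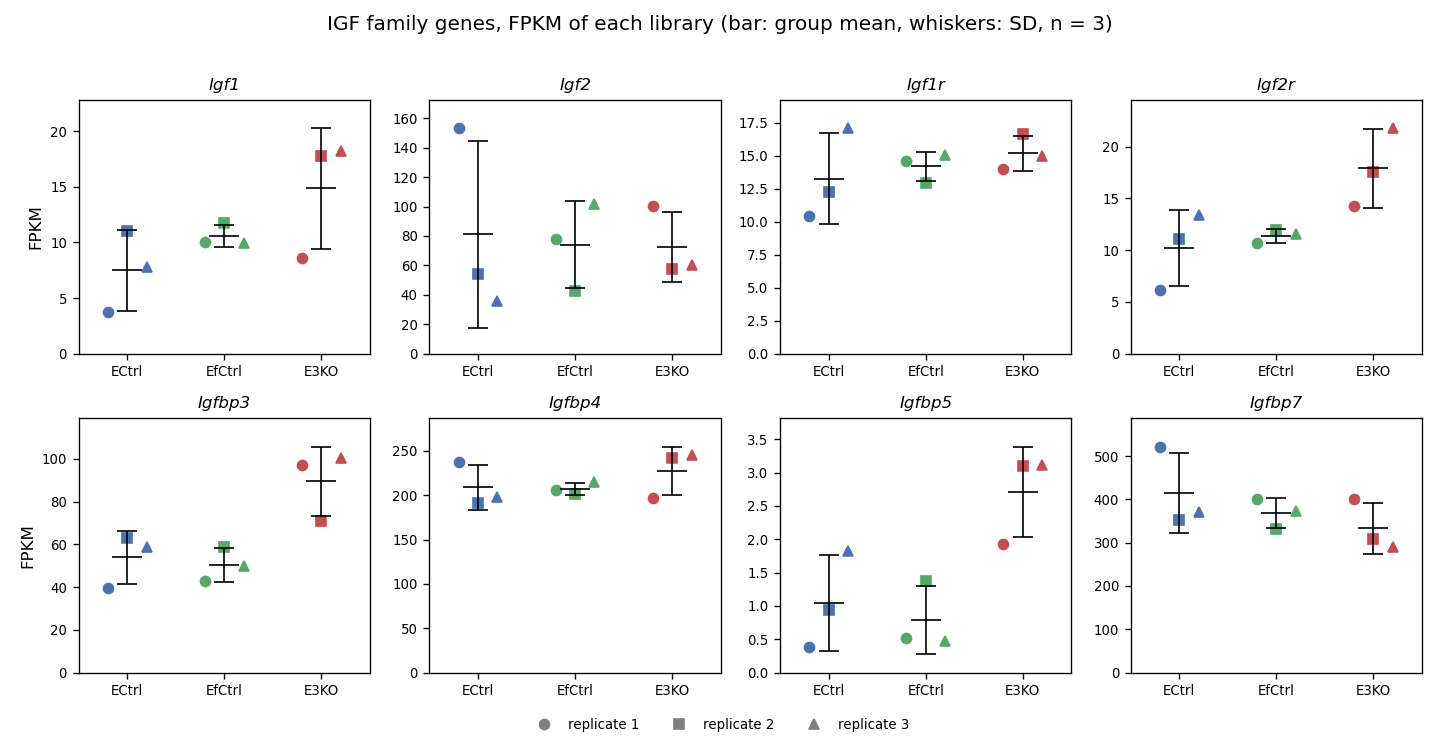
FPKM (vertical axis, linear, from 0) of the 8 family genes that reached the minimum for testing (an average of 2 FPKM in some group), by group (horizontal axis). Symbols are the 3 libraries of each group, the horizontal bar is the mean and the whiskers are the SD. The E3KO libraries lie above all 6 control libraries for Igf2r, Igfbp3 and Igfbp5, and overlap them for the other 5 genes.

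No family gene passed the test in any comparison. By limma on log2(FPKM + 1), with p-values adjusted by the Benjamini-Hochberg method over the 10605 genes that averaged at least 2 FPKM in some group, 0 of the 8 family genes tested had an adjusted p under 0.05 in E3KO against the mean of both controls, against 4.8% of all genes tested. The count was also 0 of 8 against ECtrl alone (2.25% of all genes), 0 of 8 against EfCtrl alone (0.952%) and 0 of 8 between EfCtrl and ECtrl (0% of all genes). At an unadjusted p under 0.05 the counts were 3, 4, 3 and 0 of 8, all of them higher in E3KO, against 6.93%, 6.02% and 5.02% of all genes higher in E3KO in the first 3 comparisons and 1.84% in either direction between EfCtrl and ECtrl. The 3 genes, Igf2r, Igfbp3 and Igfbp5, were also those whose E3KO libraries all lay above the 6 control libraries, as did those of 5.18% of all genes tested. The 3 comparisons of E3KO share libraries and are not independent. The median log2 difference of the 8 genes against the mean of both controls was 0.41, beside -0.08 for all genes tested. Igfbp5 passed the FPKM minimum only through its E3KO libraries, so these counts and this median do not describe all 10 genes. Without Igfbp5 the median of the other 7 was 0.15, and 2 of the 7 had an unadjusted p under 0.05 against the mean of both controls. The family list was chosen with earlier results of these data known, so these counts and medians do not test the family as a set.

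Igf1, the ligand with the highest affinity for IGF1R, was 3.71, 11.0 and 7.76 FPKM in ECtrl, 10.1, 11.7 and 9.95 FPKM in EfCtrl and 8.60, 17.8 and 18.2 FPKM in E3KO. Replicates 2 and 3 of E3KO lay above all controls, whereas the library labelled E3KO replicate 1 lay among them. The log2 difference from the mean of both controls was 0.66 ± 0.32 (SE), with a 95% interval from -0.07 to 1.40 (limma, adjusted p = 0.251). It was 0.94 against ECtrl (adjusted p = 0.213) and 0.39 against EfCtrl (adjusted p = 0.601). Without the library labelled E3KO replicate 1 the log2 difference of Igf1 was 0.99 (adjusted p = 0.116). In a bulk culture, a change in the number of cells of a type and a change in RNA per cell cannot be told apart.

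Markers of macrophages and leukocytes, which the ICAM2 selection was not aimed at, had their highest summed level in E3KO replicates 2 and 3, through Lyz2 and Cd68. The sum of the 9 markers was 72.4 to 152 FPKM in ECtrl, 158 to 253 FPKM in EfCtrl and 198 to 314 FPKM in E3KO. Lyz2, the lysozyme gene of myeloid cells, led the sum at 28.0, 111 and 80.5 FPKM in ECtrl, 123, 191 and 107 FPKM in EfCtrl and 133, 212 and 221 FPKM in E3KO. ECtrl replicate 1 was lowest in both Igf1 and Lyz2, and E3KO replicates 2 and 3 were highest in both. Cd68 followed with means of 15.1, 23.3 and 36.1 FPKM in ECtrl, EfCtrl and E3KO. Other markers had other orders. Itgam, Itgb2 and Cd14 were highest in the library labelled E3KO replicate 1, Adgre1 and Csf1r in EfCtrl replicate 2 and C1qa in EfCtrl replicate 1. The defining leukocyte genes Ptprc, Adgre1, Csf1r and C1qa were low but not at 0, at 0.0493 to 2.26 FPKM. None of the 4 markers tested passed the test in E3KO against the mean of both controls (3 were higher at an unadjusted p under 0.05, as were 6.93% of all genes tested). At the same unadjusted limma threshold, 3 of these 4 markers were higher against ECtrl (6.02% of all genes) and 0 against EfCtrl (5.02%). Their part in the Igf1 values was not tested.

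Igf2, the fetal growth factor, was 154, 54.0 and 35.7 FPKM in ECtrl, 77.7, 42.8 and 102 FPKM in EfCtrl and 100.1, 57.9 and 60.1 FPKM in E3KO. The 3 groups overlapped, and the spread within a group was large. The SD of Igf2 within groups on the log2 scale exceeded that of 95.9% of the genes tested. Its log2 difference in E3KO was 0.04 ± 0.46 (SE), with a 95% interval from -1.02 to 1.10 (limma, adjusted p = 0.960), which leaves a difference of more than 1 in either direction within the interval. H19, the noncoding RNA of the same imprinted locus, was 334, 74.5 and 79.9 FPKM in ECtrl, 138, 70.0 and 152 FPKM in EfCtrl and 299, 145 and 168 FPKM in E3KO. H19 was named after its values were seen. ECtrl replicate 1 was the highest library for both RNAs, and H19 too had an adjusted p above the threshold (0.438).

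**Figure D2:**
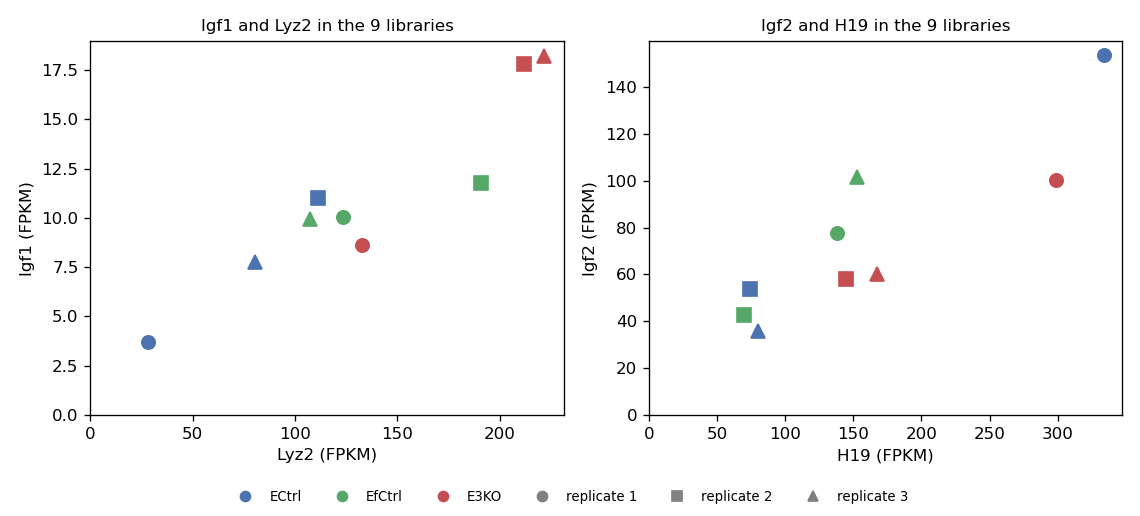
Left, Igf1 (vertical axis, FPKM) against Lyz2 (horizontal axis, FPKM). Right, Igf2 against H19, also in FPKM, with the axes of each panel scaled separately. Each point is 1 of the 9 libraries, with color for the group and symbol for the replicate number. Igf1 and Lyz2 were both lowest in ECtrl replicate 1 and highest in E3KO replicates 2 and 3, and Igf2 and H19 were both highest in ECtrl replicate 1.

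Among the receptors, Igf2r differed more between the groups than Igf1r. Igf2r was 6.17, 11.1 and 13.4 FPKM in ECtrl, 10.7, 11.9 and 11.5 FPKM in EfCtrl and 14.3, 17.6 and 21.8 FPKM in E3KO. Each E3KO library was above each control library, although the margin between the lowest E3KO and the highest ECtrl library was small. The mean was 17.9 ± 3.79 FPKM (SD, n = 3) in E3KO and 10.8 ± 2.44 FPKM (SD, n = 6) in the controls, a ratio of 1.66. The log2 difference was 0.69 ± 0.22 (SE), with a 95% interval from 0.19 to 1.20, and did not pass the adjusted threshold (limma, adjusted p = 0.114, or 0.143 against ECtrl and 0.278 against EfCtrl). An exact two-sided permutation test of the 3 E3KO and 6 control libraries gave p = 0.0119, the smallest that 84 splits allow, with no adjustment for the genes tested. Without E3KO replicate 3 the exact permutation p for Igf2r was 0.143.

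Igf1r was 10.4, 12.2 and 17.1 FPKM in ECtrl, 14.6, 13.0 and 15.0 FPKM in EfCtrl and 14.0, 16.6 and 15.0 FPKM in E3KO. The groups overlapped, and the log2 difference was 0.15 ± 0.15 (SE), with a 95% interval from -0.19 to 0.49 (limma, adjusted p = 0.569). The level of Igf2r relative to Igf1r in the same library was 0.593 to 0.919 in the 6 controls and 1.02 to 1.46 in E3KO. Igf2r was thus the lower of the receptors in every control library and the higher in every E3KO library. This ratio was chosen after its values were seen and was not tested. Insr, the insulin receptor, which can pair with IGF1R, was 8.42 ± 0.422, 9.95 ± 0.607 and 9.25 ± 1.34 FPKM (SD, n = 3) in ECtrl, EfCtrl and E3KO, with a log2 difference of 0.01 (limma, adjusted p = 0.974).

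Igfbp3, the main carrier of IGFs in blood, was 39.7, 63.0 and 58.8 FPKM in ECtrl, 42.7, 58.8 and 49.8 FPKM in EfCtrl and 96.9, 70.9 and 101 FPKM in E3KO. All 3 E3KO libraries were above all 6 controls. The mean was 89.5 ± 16.2 FPKM (SD, n = 3) in E3KO against 52.1 ± 9.55 FPKM (SD, n = 6) in the controls, a ratio of 1.72. The log2 difference was 0.77 ± 0.19 (SE), with a 95% interval from 0.34 to 1.20, and lay just outside the threshold (limma, adjusted p = 0.0573). It was 0.73 against ECtrl (adjusted p = 0.117) and 0.81 against EfCtrl (adjusted p = 0.120), while EfCtrl and ECtrl differed by -0.08. The exact permutation p was 0.0119, the smallest possible, with no adjustment for the genes tested. Without the library labelled E3KO replicate 1 the log2 difference of Igfbp3 was 0.71 (adjusted p = 0.119).

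Igfbp5, which also binds extracellular matrix, had low levels throughout. It was 0.383, 0.935 and 1.82 FPKM in ECtrl, 0.516, 1.38 and 0.468 FPKM in EfCtrl and 1.93, 3.10 and 3.11 FPKM in E3KO. The E3KO libraries were above all controls, the lowest of them by a small margin over ECtrl replicate 3. The means were 2.71 ± 0.676 FPKM (SD, n = 3) in E3KO and 0.917 ± 0.579 FPKM (SD, n = 6) in the controls, a ratio of 2.96. The log2 difference was 0.99 ± 0.25 (SE), with a 95% interval from 0.41 to 1.57 (limma, adjusted p = 0.0676). The added 1 FPKM makes this difference smaller than the ratio of the means for so low a gene. Igfbp5 entered the fit only because its E3KO libraries passed the FPKM minimum, so the limma interval and p-value lend no separate support. Without that minimum the limma adjusted p was 0.122. The exact permutation p was 0.0238, with no adjustment for the genes tested.

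**Figure D3:**
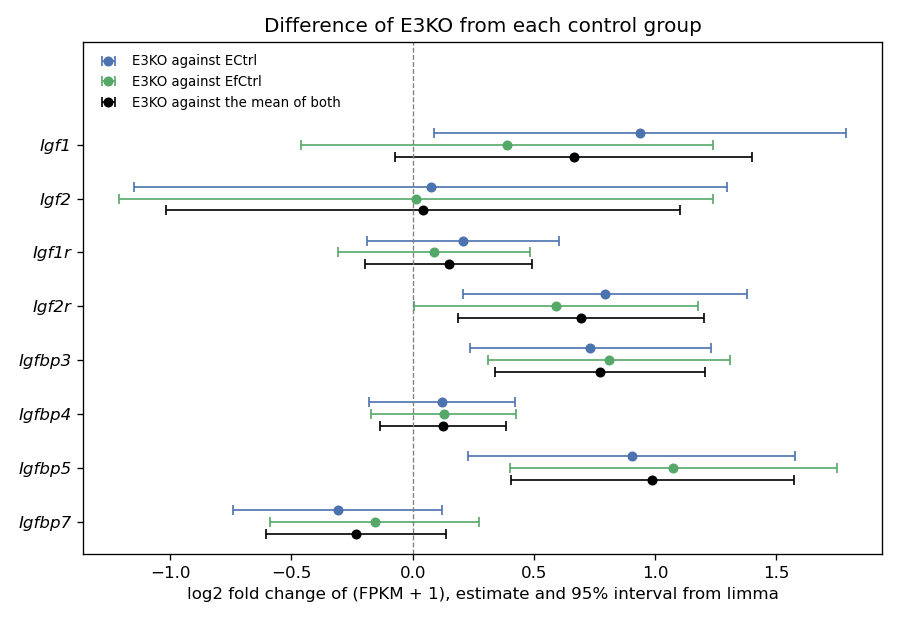
Log2 fold change of (FPKM + 1) in E3KO (horizontal axis) for the 8 family genes tested (vertical axis), against ECtrl, against EfCtrl and against the mean of both. Points are limma estimates and bars are 95% intervals for single genes, not adjusted for the number of genes. The intervals of Igf2r, Igfbp3 and Igfbp5 lie above 0 in all 3 comparisons, which share libraries, and no gene had an adjusted p under 0.05. Igfbp5 passed the FPKM minimum only through E3KO.

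The most abundant binding proteins, Igfbp4 and Igfbp7, had smaller log2 differences than Igfbp3 and Igfbp5. Igfbp4, which is cut by the protease PAPP-A to release IGF, was 238, 191 and 198 FPKM in ECtrl, 206, 201 and 215 FPKM in EfCtrl and 196, 242 and 245 FPKM in E3KO. The groups overlapped, and its log2 difference was 0.12 ± 0.11 (SE), with a 95% interval from -0.13 to 0.38 (limma, adjusted p = 0.525). Igfbp7, a family member with low affinity for IGFs that is abundant in vascular basement membrane, was 522, 353 and 371 FPKM in ECtrl, 401, 332 and 374 FPKM in EfCtrl and 401, 309 and 289 FPKM in E3KO. ECtrl replicate 1 was the highest library, and the groups overlapped. Its log2 difference was -0.23 ± 0.16 (SE), with a 95% interval from -0.61 to 0.14 (limma, adjusted p = 0.406). Igfbp6, which prefers IGF2, was listed at 0 in 4 libraries and was at most 0.101 FPKM in the others. The genes whose FPKM followed Igfbp7 most closely over the 9 libraries were a gene whose symbol the table gives as 1-Sep (Pearson r = 0.967), Arl4a (r = 0.963) and Arf2 (r = 0.959). These correlations are descriptions over libraries of 3 groups and were not tested.

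The total of the 6 binding proteins was similar in the groups, while its make-up differed in the values observed. The summed FPKM was 679 ± 105 in ECtrl, 627 ± 30.1 in EfCtrl and 653 ± 38.2 in E3KO (SD, n = 3). Igfbp7 made up 60.7 ± 3.92%, 58.7 ± 2.87% and 50.8 ± 6.23% of the sum in ECtrl, EfCtrl and E3KO. Igfbp3 made up 8.22 ± 2.87%, 8.09 ± 1.69% and 13.7 ± 2.21%. The Igfbp3 share was 11.4 to 15.8% in the E3KO libraries and 4.96 to 10.4% in the controls, with no overlap. The Igfbp7 share overlapped, because the library labelled E3KO replicate 1 stood at 57.6%, within the 55.9 to 65.2% of the controls. Igfbp4 made up 30.9 ± 0.982%, 33.1 ± 1.22% and 35.1 ± 5.97% in the 3 groups. Its share was 28.2% in the library labelled E3KO replicate 1, and 38.7 and 38.4% in replicates 2 and 3. The controls ranged from 29.8 to 33.9%. Shares of a sum depend on each other and were not tested.

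**Figure D4:**
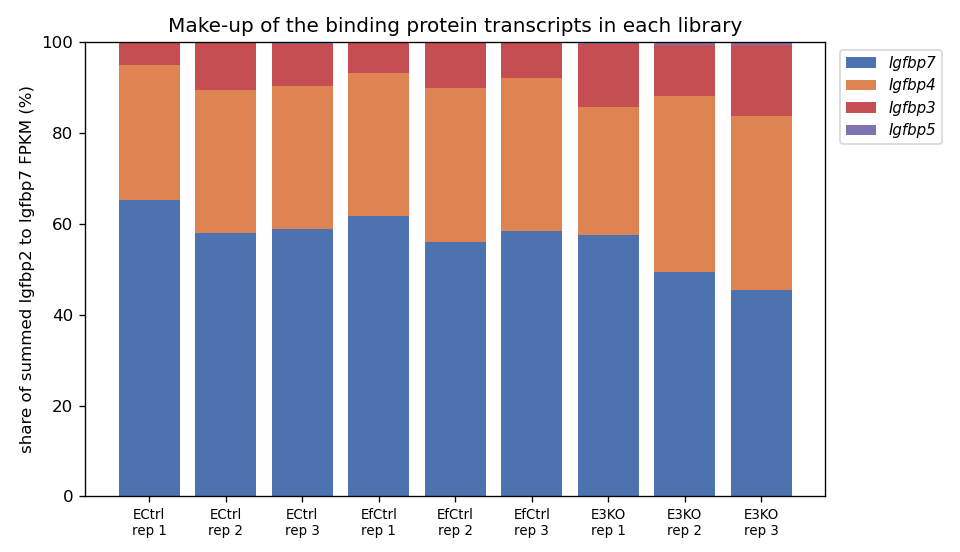
Share of the summed FPKM of Igfbp2 to Igfbp7 (vertical axis, %) that each binding protein took in each of the 9 libraries (horizontal axis). Igfbp5 is a thin band, and Igfbp2 and Igfbp6, at 0 or nearly so, are not drawn. The Igfbp3 share was 11.4 to 15.8% in E3KO and 4.96 to 10.4% in the controls.

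The wider IGF pathway was described by a list of 38 other genes, from ligand partners to kinases, of which 27 were tested. In E3KO against the mean of both controls 1 was higher (1.54% of all genes tested) and 1 was lower (3.26%), and the median log2 difference was -0.07. Igf2bp3, an RNA-binding protein named for its binding to Igf2 mRNA, was the higher one. It was 1.59, 1.14 and 1.40 FPKM in ECtrl, 1.45, 1.97 and 1.33 FPKM in EfCtrl and 3.27, 3.41 and 3.81 FPKM in E3KO, with no overlap between E3KO and the controls. It rose by a log2 difference of 0.86 ± 0.11 (SE) (limma, adjusted p = 0.0120), and passed the test against ECtrl (adjusted p = 0.0226) and against EfCtrl (adjusted p = 0.0399) as well. Without E3KO replicate 3 the adjusted p for Igf2bp3 was 0.0746. Like Igfbp5, Igf2bp3 passed the FPKM minimum only through E3KO, and its locus overlaps Malsu1 on the other strand. Igf2bp1, of the same protein family, was under the minimum for testing, at 0.0956 to 0.152 FPKM in ECtrl, 0.218 to 0.400 FPKM in EfCtrl and 0.697 to 2.25 FPKM in E3KO. This gene was named after its values were seen.

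Stc1, which encodes stanniocalcin 1, an inhibitor of PAPP-A, was 34.9, 27.1 and 44.3 FPKM in ECtrl, 28.4, 31.2 and 23.5 FPKM in EfCtrl and 5.04, 14.1 and 10.4 FPKM in E3KO. All E3KO libraries were below all controls, as for 11.5% of all genes tested, and Stc1 fell by 1.66 on the log2 scale (SE 0.28, limma, adjusted p = 0.0216). The adjusted p was 0.0361 against ECtrl and 0.0752 against EfCtrl. The call was lost without EfCtrl replicate 1 (adjusted p = 0.0598), EfCtrl replicate 3 (0.0541) or E3KO replicate 3 (0.0803). Pappa itself, the gene of PAPP-A, was under the minimum for testing at 1.30 to 1.65 FPKM in ECtrl, 1.36 to 1.88 FPKM in EfCtrl and 0.555 to 1.18 FPKM in E3KO, also without overlap. The exact permutation p for Pappa was 0.0119, the smallest possible, with no adjustment for the number of genes. Pappa2 was at most 0.302 FPKM. Irs1 and Irs2, the adaptor proteins of the insulin and IGF receptors, were at most 0.149 and 0.291 FPKM, and Igfbp1 and the serum carrier subunit Igfals were listed at 0 FPKM in all 9 libraries. None of the tested kinases and adaptors downstream of the receptors passed the test.

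A list of 9 genes with a domain like that of the binding proteins, 2 of them also in the pathway list, was examined, of which 6 were tested and 3 were higher in E3KO than the mean of both controls (1.54% of all genes tested). The median log2 difference of the 6 was 0.56. The list was chosen with earlier results of these data known, so this count and median do not test the domain genes as a set. Ctgf, a secreted matricellular protein, was 150, 195 and 119 FPKM in ECtrl, 142, 138 and 149 FPKM in EfCtrl and 316, 236 and 264 FPKM in E3KO. It rose by a log2 difference of 0.87 ± 0.16 (SE) (limma, adjusted p = 0.0270). The related Cyr61 was 36.3, 40.7 and 33.4 FPKM in ECtrl, 37.2, 32.1 and 33.2 FPKM in EfCtrl and 58.6, 44.9 and 55.6 FPKM in E3KO, and rose by 0.56 ± 0.12 (adjusted p = 0.0385). Esm1, a proteoglycan known from sprouting endothelial tip cells, was 29.0, 54.4 and 42.0 FPKM in ECtrl, 30.4, 46.1 and 38.0 FPKM in EfCtrl and 74.8, 76.6 and 90.1 FPKM in E3KO, and rose by 1.02 ± 0.20 (adjusted p = 0.0337). For each of the 3 genes all E3KO libraries lay above all controls, as for 5.18% of all genes tested. None of them passed against ECtrl alone or EfCtrl alone, with adjusted p-values from 0.0625 to 0.0908. All 3 calls were lost without the library labelled E3KO replicate 1 (adjusted p = 0.0603 to 0.0741), and also without EfCtrl replicate 1, EfCtrl replicate 3 or E3KO replicate 3. Cyr61 and Ctgf lost theirs without ECtrl replicate 1 or EfCtrl replicate 2, Cyr61 and Esm1 without ECtrl replicate 3, and Esm1 without E3KO replicate 2. Wisp1, Nov and Htra1 did not pass the test, with log2 differences of 0.55, -0.24 and -0.80, and Wisp2, Igfbpl1 and Kazald1 were under the minimum of 2 FPKM.

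**Figure D5:**
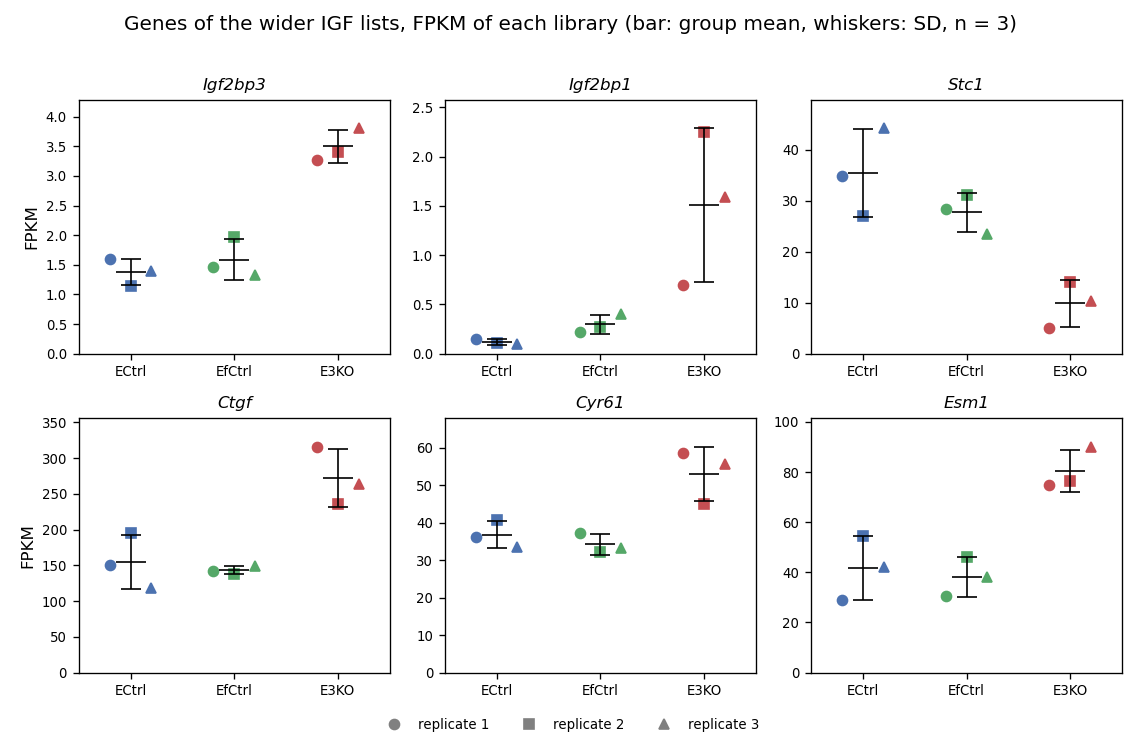
FPKM (vertical axis, linear, from 0) of the genes of the wider lists that passed the test in E3KO against the mean of both controls, and of Igf2bp1, which was too low to be tested, by group (horizontal axis). Symbols are the 3 libraries of each group, the bar is the mean and the whiskers are the SD. E3KO libraries lie below all controls for Stc1 and above all controls for the other 5 genes.

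Other cell types gave low levels in these cultures. The fibroblast markers, led by Dcn and Col1a2, summed to 9.04 to 18.2 FPKM in ECtrl, 11.7 to 32.0 FPKM in EfCtrl and 4.63 to 15.2 FPKM in E3KO. Smooth muscle and pericyte markers, led by Acta2 and Tagln, summed to 8.42 to 33.6, 19.5 to 56.2 and 7.93 to 13.7 FPKM in the same order. The smooth muscle sums of all E3KO libraries were below those of all EfCtrl libraries, and for both lists ECtrl replicate 1 was below the other ECtrl libraries. Epithelial markers summed to at most 6.03 FPKM in 8 libraries and to 51.2 FPKM in the library labelled E3KO replicate 1, mostly from Scgb1a1, while Nkx2-1 was at 0 in all. Mesothelial markers summed to at most 3.42 FPKM. The part of these cells in the IGF family values was not tested.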

How the data were processed

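The authors made sequencing libraries from MLEC RNA, read 40 bp from both ends, aligned the reads (TopHat2, mm10), and assembled and compared transcripts with Cufflinks, Cuffmerge and Cuffdiff (Cufflinks 1.0.3 per the submitters' processing notes). The deposited tables give FPKM per library and per group. Their fold changes, test statistics and p-values are the authors' own comparisons and were not used. FPKM of 37104 loci were read, and 3749 loci that share a symbol with another locus were left out, as were 2 loci without library values. The 10605 genes averaging at least 2 FPKM in some group were fitted as log2(FPKM + 1) with limma 3.58.1 in R 4.3.3, all 3 groups in 1 fit without covariates, and p-values were adjusted by Benjamini-Hochberg with a threshold of 0.05. A fold change is on this log2(FPKM + 1) scale and understates that of low genes. Exact two-sided permutation tests used log2(FPKM + 0.1) (numpy 2.4.6, scipy 1.17.1). The fit was also run on simulated data, drawn as independent normal values with no unusual library. That run cannot show how a library such as that labelled E3KO replicate 1 affects the calls. The study's methods give only an average depth, not that of each library, so no counting interval was computed. Libraries are separate isolations of pooled mice.

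The family, pathway, domain and marker lists were chosen with earlier results of these data known. Named were all 10 family genes, the targeted genes, pathway or domain genes that passed the test, a fixed group of family partners, and the 3 genes most correlated with a called family gene or, with none called, with the most abundant one. Alternatives were the pseudocount, the FPKM minimum, scaling, a variance trend, the replicate number as a block, and leaving out each library.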

Additional observations from a re-analysis of the deposited data

Results flagged for a closer look

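Igfbp7 in ECtrl replicate 1, at 522 FPKM, stood apart from the other 5 control libraries, which ranged from 332 to 401 FPKM. Dixon's ratio was 0.635, above the 95% critical value for 6 samples. About 1 in 20 such groups would be marked by chance, and 9 of the family genes were examined this way. Igf2r in the same library, at 6.17 FPKM the lowest control, came close to that value with a ratio of 0.623.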

How the results depend on the processing

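Of 10605 genes, 509 were called in E3KO against the mean of both controls, 239 against ECtrl, 101 against EfCtrl and 0 between EfCtrl and ECtrl (195 at an unadjusted p under 0.05). Without the FPKM minimum, 95 were called against ECtrl and 17 against EfCtrl. The deviations of same-numbered libraries correlated at -0.04 to 0.12, and those of libraries with different numbers at -0.21 to 0.08. With 3 libraries a group, these correlations cannot decide whether the replicate numbers pair the libraries. With the replicate number as a block, 202, 1 and 1 genes were called in the 3 comparisons of E3KO. Leaving out 1 library gave 9 to 408, 0 to 215, 1 to 218 and 0 to 4 genes, with the lowest of the first 3 ranges reached without E3KO replicate 3. The calls against the mean of both controls were 163 higher and 346 lower, but 209 and 268 after centring on the median and 214 and 232 after quantile normalization. The cause of these changes was not tested.

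The count of family genes called went from 0 to 1 against the mean of both controls under quantile normalization (Igfbp5, adjusted p = 0.0219), with a mean-variance trend (Igfbp3, 0.0430) and without ECtrl replicate 3 (Igfbp5, 0.0434), a range of 0 to 1 over left-out libraries. It went to 1 against EfCtrl under quantile normalization (Igfbp5, 0.0399), and was 0 to 0 there, against ECtrl and between the controls over left-out libraries. Igfbp5 had passed the FPKM minimum only through E3KO. Over 16 alternatives the adjusted p against both controls was 0.0430 to 0.160 for Igfbp3, 0.0219 to 0.169 for Igfbp5 and 0.0788 to 0.246 for Igf2r, and the sign of every family gene tested except Igf2 was kept. The Igf2 log2 difference ranged over left-out libraries from -0.21 to 0.34 (both controls, and -0.21 to 0.28 in the permutation test), -0.37 to 0.67 (ECtrl), -0.33 to 0.28 (EfCtrl) and -0.38 to 0.65 (EfCtrl against ECtrl). Between EfCtrl and ECtrl the sign also turned for Igf1r (-0.030 to 0.30), Igf2r (-0.092 to 0.41), Igfbp3 (-0.28 to 0.048), Igfbp4 (-0.068 to 0.090, and 0.036 under quantile normalization), Igfbp5 (-0.42 to 0.091) and Igfbp7 (-0.26 to 0.023). The exact permutation p rose above 0.05 for Igf2r without E3KO replicate 3 (0.143) and for Igfbp5 without E3KO replicate 2 or 3 (0.0714), and fell to 0.0357 for Igfbp4 without the library labelled E3KO replicate 1. Stc1, Ctgf, Cyr61 and Mapk9 lost their calls with the block (adjusted p = 0.0531, 0.0705, 0.0814 and 0.0756), and Cyr61, Esm1 and Mapk9 without the FPKM minimum (0.0508, 0.0642 and 0.0597).

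Fragment counts per gene and library were not used here, so no limit was set on the level of genes at or near 0 FPKM, such as Igfbp2 and Igfbp6. With 3 against 6 libraries the permutation test cannot give a p below 0.0119.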
